A study of Rattus norvegicus with 31 samples.

Results

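Hsd11b1 and Hsd11b2 encode the enzymes that switch glucocorticoids on and off inside cells. The members were taken as the array probe sets whose annotated gene symbol is Hsd11b1 or Hsd11b2. Each gene had 1 probe set, so 2 of the 31042 probe sets other than controls, and 2 of the 14217 genes named by exactly 1 symbol, are described. In the RefSeq gene table of rat assembly GRCr8, Hsd11b1 (Entrez gene 25116, NM_017080) lies on chromosome 13 between 107277526 and 107327462, and Hsd11b2 (Entrez gene 25117, NM_017081) on chromosome 19 between 50307569 and 50312812.

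The enzyme HSD11B1 sits in the endoplasmic reticulum and, when NADPH is supplied there by hexose-6-phosphate dehydrogenase (H6pd), reduces inert 11-keto steroids to active glucocorticoid, in rats corticosterone. HSD11B2 uses NAD and runs the other way, oxidising corticosterone to its inert form, best known from the kidney, where it keeps glucocorticoids off the mineralocorticoid receptor. Rat Leydig cells, the testosterone-making cells between the seminiferous tubules, are known to hold both enzymes, and there HSD11B1 can also work as an oxidase.

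The data were 31 Affymetrix rat genome arrays of testis RNA from LBNF1 rats, a hybrid of the Lewis and Brown Norway strains, aged 25 to 27 weeks and given 6 Gy to the lower abdomen. In 6 arrays the rats received estradiol together with hormone ablation by a gonadotropin-releasing hormone antagonist and an androgen receptor antagonist, in 11 arrays the ablation alone, by such an antagonist and flutamide, and in 14 arrays a sham treatment. The label of the estradiol group also speaks of supplementation with follicle-stimulating hormone. Each array is labelled as a biological replicate, and the p-values measure the spread between these arrays. Of the sham arrays, 10 are described as control and 4 as irradiated although all titles call them irradiated. The 6 estradiol arrays are a newer deposit than the other 25, so that the treatment with estradiol and the deposit cannot be told apart in any comparison that uses them. Each group enters 2 of the 3 comparisons, which therefore share arrays.

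All values are the deposited signals on a logarithmic scale, read as log2. The base is not stated, and every fold rests on that reading. A probe set was kept for testing where 6 or more arrays had it above a filter level, set at the 40th percentile of each array (−1.93 to −1.75), which left 21269 probe sets and 11387 genes. Both members lay above that level on all 31 arrays. Array medians ran from −1.44 to −1.24, and the number of arrays limits the precision. Defining markers of Leydig, Sertoli, peritubular and macrophage cells were measured above the filter level in the sham group, apart from 2 of 6 Sertoli markers. Markers of epididymis averaged below that level in every group for 3 of 3 measured genes. Arrays differed in spermatid RNA: Prm1, a protamine that packs sperm DNA, lay above the array median in 0 of 6 estradiol arrays, 8 of 11 ablation arrays and 5 of 14 sham arrays. Leaving out these 13 arrays keeps few ablation arrays and every estradiol array, so a change is harder to call there.

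Hsd11b1 was the strongly lowered member of the pair. In the ablation arrays it ran from 0.87 (replicate 10) over a median of 1.38 to 1.69 (replicate 4), against 2.55 (replicate 5) over 3.43 to 3.73 (replicate 12) in the sham arrays. Each of the 11 ablation arrays stood under the lowest sham array, and the gap between the groups was wider than the whole range of the ablation arrays. The group means were 1.35 ± 0.25 with ablation (SD, n = 11) and 3.35 ± 0.31 with sham treatment (SD, n = 14).

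By limma, fitted to all 31 arrays in 3 groups and adjusted over the 21269 probe sets by Benjamini and Hochberg, Hsd11b1 fell by 2.00 on the log2 scale with ablation (SE 0.11, 95% interval −2.22 to −1.78, adjusted p = 4.25e-17). The signal was 4.00-fold lower, leaving 25.0% of the sham level. Both members fell in this comparison, and 10.3% of all tested probe sets did. The share of probe sets with such a separation towards lower values was 1.4%, and Hsd11b1 was among them. Among the 11387 genes, 32 had a lower change than Hsd11b1.

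Estradiol added to the ablation left no detected difference in Hsd11b1. The estradiol arrays ran from 1.04 (replicate 5) over 1.48 to 1.63 (replicate 2), within the range of the ablation arrays. The difference of estradiol plus ablation from ablation alone was 0.09 (SE 0.14, adjusted p = 0.808 by limma). Its 95% interval, −0.19 to 0.36, allows a signal of 0.88 to 1.29 times that with ablation alone, so a change of that size in either direction is not shown to be absent. Set against the sham arrays, Hsd11b1 fell by 1.91 in the estradiol arrays (SE 0.13, adjusted p = 4.89e-14 by limma), a 3.77-fold lower signal. All 6 estradiol arrays lay below every sham array, as in 2.15% of probe sets, and 54 genes had a lower change.

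**Figure D1:**
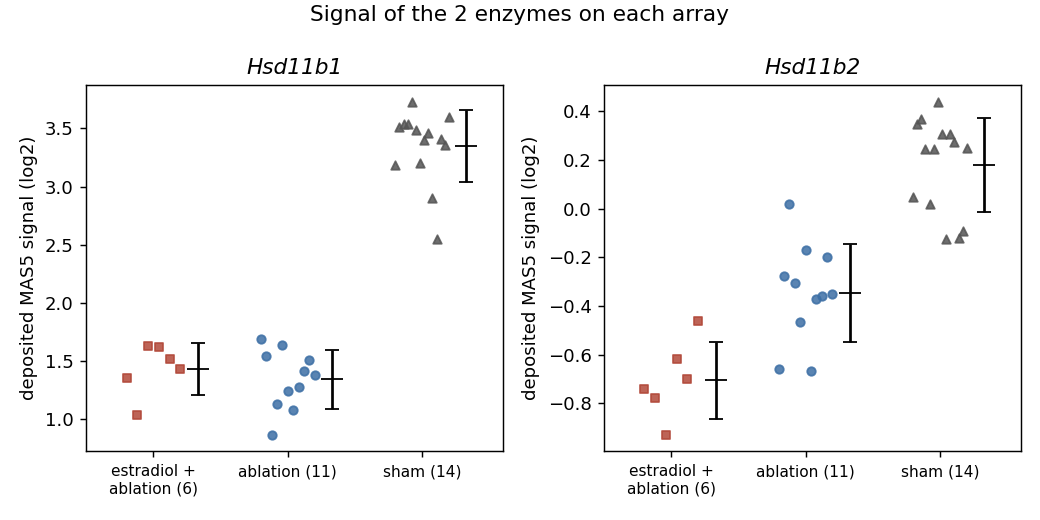
Signal of Hsd11b1 and of Hsd11b2 on each array (log2), by group, with estradiol plus ablation, ablation and sham from left to right, and with bars for mean ± SD. The Hsd11b1 points form 1 low band with ablation, with or without estradiol, and 1 high band in the sham group, while the Hsd11b2 points step up from the estradiol to the ablation to the sham group.

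Hsd11b2 changed less, and its estradiol arrays lay lowest. In the ablation arrays it ran from −0.67 (replicate 7) over −0.35 to 0.02 (replicate 10), against −0.13 (replicate 11) over 0.25 to 0.44 (replicate 4) in the sham arrays. Only ablation replicate 10 reached into the sham range, so that 10 of 11 arrays lay below every sham array. The means were −0.35 ± 0.20 with ablation (SD, n = 11) and 0.18 ± 0.19 with sham treatment (SD, n = 14). Hsd11b2 fell by 0.53 with ablation (SE 0.08, 95% interval −0.70 to −0.35, adjusted p = 1.32e-05 by limma), a 1.44-fold lower signal, and 764 genes had a lower change.

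With estradiol the Hsd11b2 signal was lower again. The estradiol arrays ran from −0.93 (replicate 2) over −0.72 to −0.46 (replicate 1). Of the 6 estradiol arrays, 4 lay below every ablation array and all 6 below the mean of the ablation arrays. Estradiol plus ablation differed from ablation by −0.36 (SE 0.11, 95% interval −0.58 to −0.14, adjusted p = 0.0366 by limma), a 1.28-fold lower signal. Here 1 of the 2 members was called lower, where 4.92% of all probe sets were. The call was lost when any 1 of ablation replicates 5, 6, 9 and 10 or estradiol replicates 2 to 6 was left out. The adjusted p by limma was 0.102 without estradiol replicate 2, where the difference was −0.31, and 0.0837 after quantile normalization of the arrays, where it was −0.32. Without the 13 arrays with Prm1 above the array median the difference was −0.36 with an adjusted p of 0.299 by limma. The size was thus kept, while 8 of the 11 ablation arrays were left out.

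Against the sham arrays, Hsd11b2 fell by 0.88 in the estradiol arrays (SE 0.10, 95% interval −1.09 to −0.68, adjusted p = 2.79e-08 by limma), a 1.85-fold lower signal. All 6 estradiol arrays lay below every sham array, as in 2.15% of probe sets. Both members fell here, beside 10.4% of all probe sets. The sham arrays that are described as control and as irradiated differed by −0.17 for Hsd11b1 (control minus irradiated, SE 0.17) and by 0.15 for Hsd11b2 (SE 0.13). Neither passed limma's test (adjusted p = 1.00 for both).

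**Figure D2:**
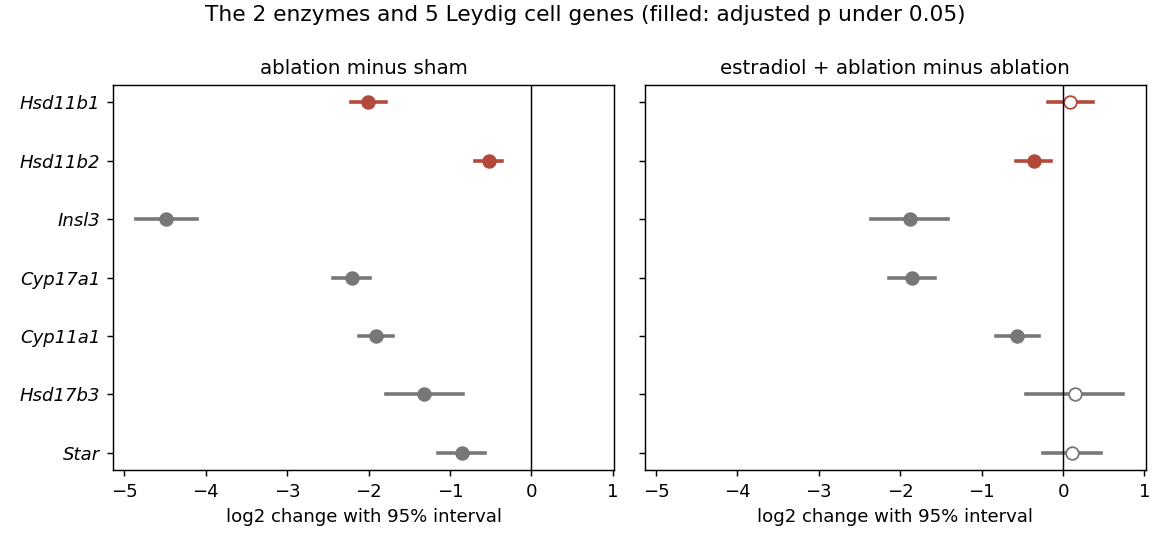
Change in log2 signal with its 95% interval for both members and for 5 Leydig cell genes, for ablation minus sham and for estradiol plus ablation minus ablation, filled where the adjusted p is under 0.05. Hsd11b1 and Cyp11a1 sit near −2 with ablation, while with estradiol the interval of Hsd11b1 spans 0 and that of Hsd11b2 lies below 0.

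The balance of the pair was followed as the difference between Hsd11b1 and Hsd11b2 on the same array. It is a log2 ratio of 2 probe sets, so its changes between groups can be read, but it does not say which enzyme is the more abundant. It ran from 1.82 over 2.16 to 2.56 in the estradiol arrays, from 0.85 over 1.73 to 2.35 in the ablation arrays and from 2.28 over 3.20 to 3.71 in the sham arrays. The lowest value was that of ablation replicate 10, which had both the lowest Hsd11b1 and the highest Hsd11b2 of its group. The highest estradiol and ablation arrays reached into the range of the sham arrays, whose lowest value was that of replicate 5.

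The ratio differed by −1.48 on the log2 scale between ablation and sham (means of 1.69 ± 0.38 with ablation and 3.17 ± 0.39 with sham treatment, SD). That is a 2.78-fold lower ratio of Hsd11b1 to Hsd11b2, and all 11 ablation arrays lay below the sham mean. A 2-sided permutation test with 100000 resamples gave p = 2e-05, the smallest it can give, and 6e-05 adjusted over the 3 comparisons of groups. Hsd11b1 and Hsd11b2 thus fell to unequal extents.

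With estradiol the ratio lay between those of the other groups. It averaged 2.14 ± 0.27 in the estradiol arrays (SD, n = 6), and all 6 lay above the ablation mean. The difference from ablation alone was 0.45, a 1.36-fold higher ratio (exact 2-sided permutation test, p = 0.017, adjusted p = 0.017). The difference from the sham arrays was −1.03, a 2.04-fold lower ratio (exact 2-sided permutation test, p = 0.000103, adjusted p = 0.000155), with all 6 arrays below the sham mean. Without the 13 arrays with Prm1 above the array median, the ratio differed by 0.52 between estradiol plus ablation and ablation, by −1.46 between ablation and sham and by −0.95 between estradiol plus ablation and sham. Each of these passed the permutation test (adjusted p = 0.0238, 0.0136 and 0.0024 in that order, exact). The 0.0238 and the 0.0136 rest on the smallest p that the test can give with the few ablation arrays left.

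**Figure D3:**
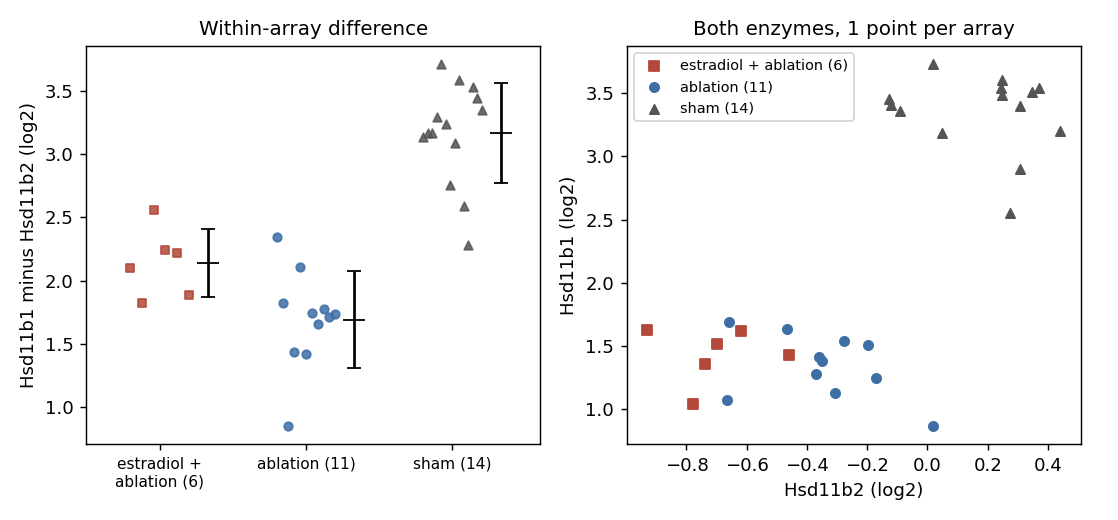
Log2 difference between Hsd11b1 and Hsd11b2 on each array by group (estradiol plus ablation, ablation, sham from left to right), with bars for mean ± SD. The sham points sit highest with a mean of 3.17, and the ablation points have the lowest mean, 1.69. The estradiol points all lie above the ablation mean and overlap only with the upper part of the ablation range.

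Within the groups the 2 members showed no detected relation. Over the 6 estradiol arrays Pearson's r was 0.02 and Spearman's rho −0.03 (exact permutation p = 0.983 for r, adjusted p = 0.983). Without the 2 arrays farthest from the median Hsd11b2, r was 0.91 over the remaining 4 estradiol arrays (exact permutation test, adjusted p = 0.293), too few to read. Over the 11 ablation arrays r was −0.43 and rho −0.32 (permutation p = 0.188 for r, adjusted p = 0.653), and r was −0.58 without the 2 arrays farthest from the median Hsd11b2. Over the 14 sham arrays r was −0.20 and rho −0.12 (permutation p = 0.528 for r, adjusted p = 0.695), with −0.17 when the 2 farthest arrays were left out. These were 3 of 12 relations computed within groups, the others being each member against the mean of 7 Leydig cell markers and Hsd11b1 against H6pd, and none passed the adjustment. The lowest unadjusted p was that of Hsd11b2 with the Leydig mean in the ablation arrays (r = 0.64, rho = 0.50, permutation p = 0.0357, adjusted p = 0.428), and r was 0.25 without the 2 farthest arrays. The sham arrays stand apart from the other groups in Hsd11b1 and in the Leydig mean, so no r was taken over all arrays as a relation.

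Most Leydig cell markers fell beside Hsd11b1 and Hsd11b2 with ablation against sham. Of the 7 markers 5 fell with ablation against sham: Insl3, a peptide hormone of Leydig cells, with a change of −4.49, the steroidogenic enzymes Cyp17a1 (−2.20) and Cyp11a1 (−1.91), Hsd17b3, which makes testosterone (−1.31), and Star, which brings cholesterol into mitochondria (−0.86; log2, adjusted p at most 6.21e-05 by limma). Of all genes 12.8% fell in this comparison. For Hsd17b3, ablation replicate 4 stood at −4.37 and the next lowest ablation array at −2.19, both below the filter level. Its change ran from −1.40 to −1.04 over single arrays left out and stayed called. The marker Nr5a1, named after its value was seen, changed by −0.27 and was not called (adjusted p = 0.121 by limma). The receptor of luteinizing hormone, Lhcgr, rose by 0.35 (adjusted p = 0.0183 by limma), a gene named after its value was seen. Its call was lost against the 4 sham arrays whose description says irradiated (0.19, adjusted p = 0.364 by limma), without the 13 arrays with Prm1 above the array median (0.53, adjusted p = 0.118 by limma) and without 6 arrays extreme on the first component of variation within groups (0.26, adjusted p = 0.117 by limma). Since whole testis was measured, fewer Leydig cells and less RNA per Leydig cell cannot be told apart. The change of −2.00 in Hsd11b1 lay between those of Cyp11a1 and Cyp17a1, and the change of −0.53 in Hsd11b2 was smaller than those of the 5 markers that fell; these differences between genes were not tested.

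With estradiol plus ablation against ablation, 3 of the 7 markers fell: Insl3 with a change of −1.88, Cyp17a1 with −1.85 and Cyp11a1 with −0.56 (adjusted p = 1.16e-06, 2.89e-11 and 0.00529 by limma), beside −0.36 in Hsd11b2. The call of Cyp11a1 was lost without the 13 arrays with Prm1 above the array median (−0.61, adjusted p = 0.139 by limma), as was that of Hsd11b2. Insl3, Cyp17a1 and Cyp11a1 each had all estradiol arrays below every ablation array, as in 1.35% of probe sets. The other 4 differed upwards, Star by 0.11, Hsd17b3 by 0.14, Lhcgr by 0.11 and Nr5a1 by 0.43, beside 0.09 in Hsd11b1, none of them called. The median change of the 7 markers was 0.11, and 2.73% of all genes fell in this comparison. The summed Leydig marker signal ran from 3.77 to 4.34 in the estradiol arrays, from 4.18 to 4.55 in the ablation arrays and from 5.52 to 6.43 in the sham arrays. The mean of the 7 log2 markers averaged 0.40 ± 0.26, 0.90 ± 0.20 and 2.43 ± 0.20 in these groups (SD). None of the 7 was below the filter level on every array, though Insl3 averaged −2.09 in the estradiol arrays, below it.

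After the values were seen, Hsd11b1 was also taken relative to that Leydig mean on the same array. The difference averaged 1.04 ± 0.29 in the estradiol arrays, 0.45 ± 0.37 in the ablation arrays and 0.92 ± 0.30 in the sham arrays (SD). Ablation differed from sham by −0.47 (permutation test, adjusted p = 0.00672), estradiol plus ablation from ablation by 0.59 (exact permutation test, adjusted p = 0.008, all 6 arrays above the ablation mean) and estradiol plus ablation from sham by 0.12 (exact permutation test, p = 0.437). The first 2 did not pass without the 13 arrays with Prm1 above the array median (−0.56 and 0.69, adjusted p = 0.0682 for both by permutation). Insl3 and Cyp17a1, which fell with estradiol plus ablation, enter this mean. So does Hsd17b3, at −4.37 on ablation replicate 4, the array with the lowest Leydig mean (0.37) and the highest difference (1.32) of its group.

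**Figure D4:**
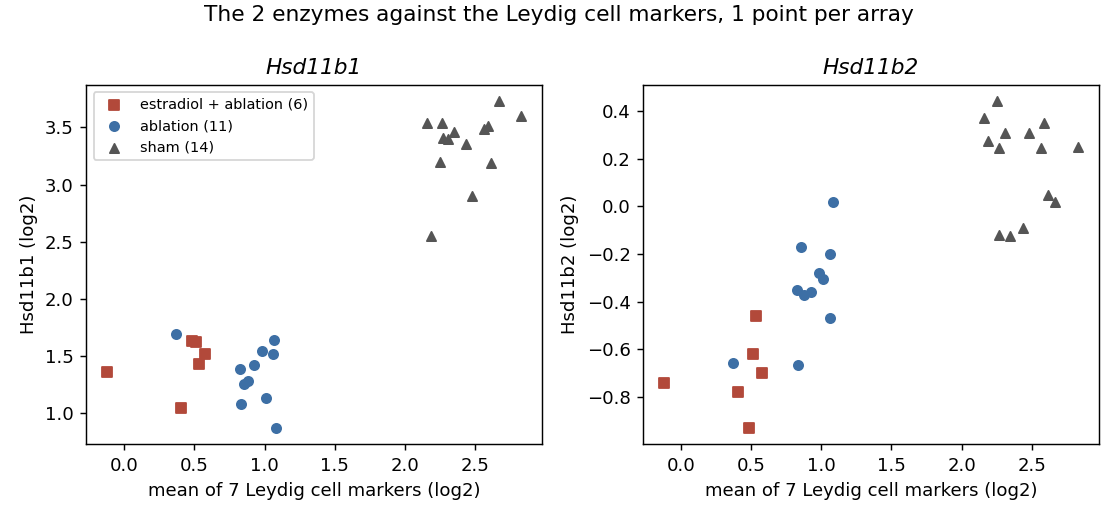
Hsd11b1 and Hsd11b2 (log2, vertical) against the mean of 7 Leydig cell markers (log2, horizontal) on each of 31 arrays, marked by group. The sham arrays stand apart along the Leydig axis, with a mean of 2.43, while the ranges of the estradiol (mean 0.40) and ablation arrays (mean 0.90) overlap through ablation replicate 4, and no line is drawn through the points.

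Other cell types also moved between the groups. The 6 macrophage markers all fell with ablation against sham (median change −0.75), and their summed signal ran from 3.05 to 3.45 in the estradiol arrays, from 3.04 to 3.51 in the ablation arrays and from 3.59 to 4.22 in the sham arrays. Of 5 peritubular myoid markers 3 fell (Tagln, Cnn1 and Myh11), with summed signals of 3.36 to 3.73 with estradiol plus ablation, 3.10 to 3.91 with ablation and 3.47 to 4.49 with sham treatment. Of 4 endothelial markers 2 fell (Kdr and Pecam1), and of 4 tested Sertoli markers 2 rose (Inha and Gata4). Of 4 spermatogonial markers 3 rose (Sall4, Ret and Gfra1) and 1 fell (Kit). Of all genes 12.8% fell and 9.23% rose with ablation against sham. The marker genes above were named after their values were seen. The part of these cell types in the changes of Hsd11b1 and Hsd11b2 was not tested. Without the 13 arrays with Prm1 above the array median, the changes with ablation were −2.04 for Hsd11b1 and −0.58 for Hsd11b2 (adjusted p = 1.93e-07 and 0.00945 by limma).

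Of 3 tested genes for the supply of NADPH in the endoplasmic reticulum, the H6pd transcript fell with ablation against sham. In this comparison 12.8% of all genes fell, and 11.9% did with estradiol plus ablation against sham. H6pd, which feeds NADPH to HSD11B1, ran from 0.43 over 0.69 to 0.90 in the estradiol arrays, from 0.19 over 0.74 to 0.95 in the ablation arrays and from 0.32 over 1.07 to 1.54 in the sham arrays. The ranges overlapped, but the lowest sham value was that of replicate 7, and the second lowest was 0.82. All 11 ablation arrays and all 6 estradiol arrays lay below the sham mean. H6pd fell by 0.39 with ablation against sham (SE 0.10, adjusted p = 0.00541 by limma) and by 0.40 with estradiol plus ablation against sham (SE 0.13, adjusted p = 0.0238 by limma), and it differed by −0.01 between estradiol plus ablation and ablation (SE 0.13, adjusted p = 0.985 by limma). The call of the estradiol arrays against sham was lost without estradiol replicate 4 or 5 (adjusted p = 0.0581 and 0.0779 by limma). It was also lost under 2 of 13 alternatives (adjusted p up to 0.108 by limma). Slc37a4 and G6pc3, which handle glucose-6-phosphate in the same compartment, were not called in any comparison. The median change of the 3 genes was −0.09 with ablation against sham, beside 0.00 over all 11387 genes.

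No receptor for the steroid was called in the fit to all arrays. The glucocorticoid receptor Nr3c1 averaged 1.35 ± 0.12 in the estradiol arrays, 1.29 ± 0.15 in the ablation arrays and 1.31 ± 0.27 in the sham arrays (SD), with a change of −0.02 with ablation against sham (SE 0.09, adjusted p = 0.916 by limma). The mineralocorticoid receptor Nr3c2, which HSD11B2 protects in the kidney, averaged 0.18 ± 0.15, 0.10 ± 0.28 and −0.12 ± 0.23 in the same groups. Its change of 0.22 with ablation against sham had an adjusted p of 0.111 by limma, but it passed the threshold without ablation replicate 2 (0.29, adjusted p = 0.0230) and under 3 alternatives, quantile normalization among them (0.25, adjusted p = 0.0316). With estradiol plus ablation against sham its change of 0.30 (adjusted p = 0.0884) passed after quantile normalization (0.37, adjusted p = 0.0110), with arrays centred on their median (0.34, adjusted p = 0.0391) and with array weights (0.33, adjusted p = 0.0438, all by limma). Of the 9 tested receptor and chaperone genes, 0 were called by limma with ablation against sham (2 at an unadjusted p under 0.05), against backgrounds of 12.8% of all genes called lower and 9.23% higher. Also 0 of 9 were called by limma with estradiol plus ablation against ablation (0 at an unadjusted p under 0.05), where 2.73% of genes were lower and 0.729% higher. Against sham, 2 of 9 rose with estradiol plus ablation, the chaperones Fkbp4 by 0.44 and Stip1 by 0.32 (adjusted p = 0.0183 and 0.0394 by limma), where 11.9% of genes were lower and 5.28% higher. Both calls were lost without estradiol replicate 1 (adjusted p = 0.0873 for Fkbp4 and 0.109 for Stip1 by limma), that of Fkbp4 also without estradiol replicate 4, and that of Stip1 also without any 1 of estradiol replicates 3, 5 and 6 or sham replicates 2, 7, 11 and 14. Of 13 alternatives, 3 lost the call of Fkbp4 and 6 that of Stip1 (adjusted p up to 0.133 and 0.273 by limma). The median changes of the 9 genes were 0.05 in the first comparison, 0.06 in the second and 0.15 in the third, beside 0.00, −0.02 and −0.03 over all genes.

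**Figure D5:**
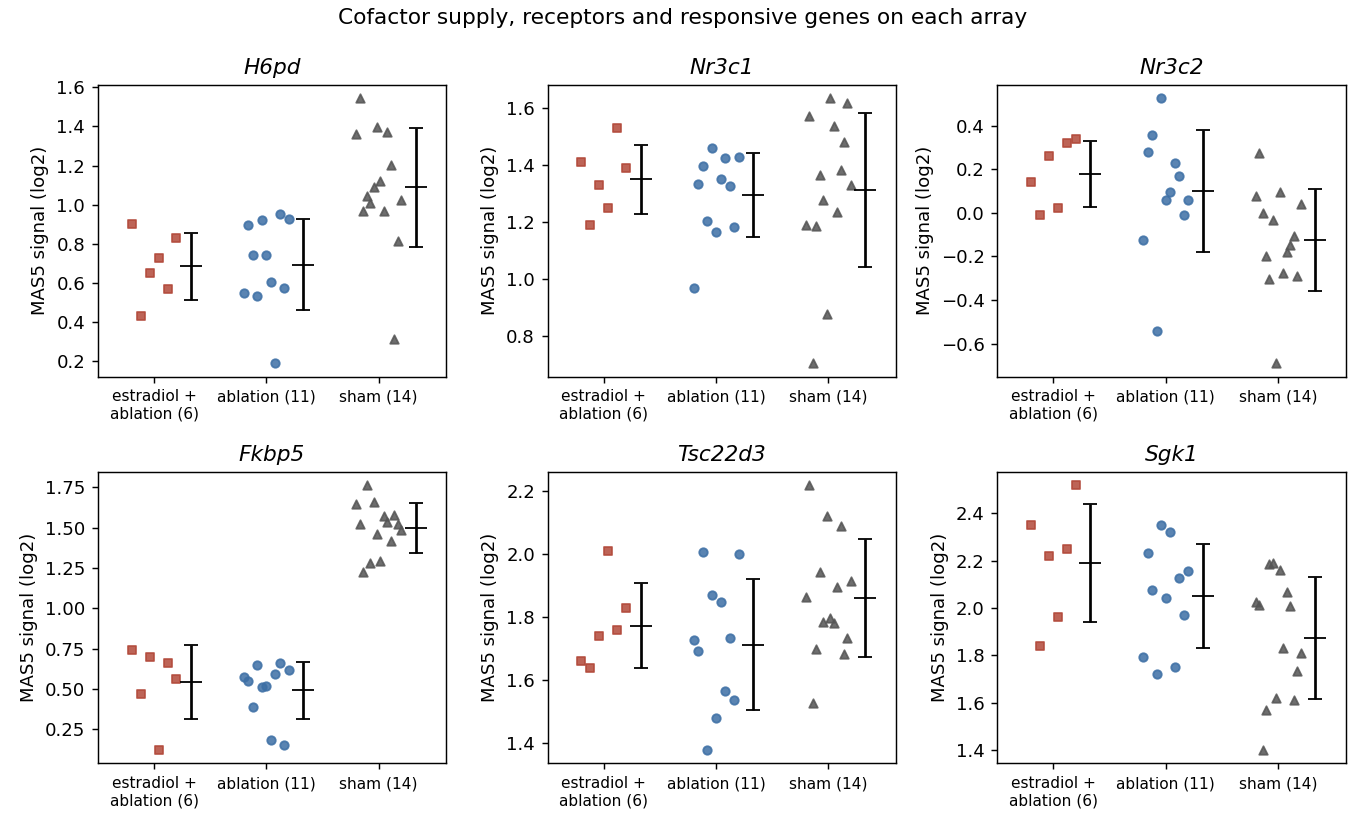
Signal on each array (log2) of H6pd, the receptors Nr3c1 and Nr3c2 and the glucocorticoid-responsive genes Fkbp5, Tsc22d3 and Sgk1, by group (estradiol plus ablation, ablation, sham from left to right), with bars for mean ± SD. Fkbp5 is the panel whose ablation and sham points do not overlap, with medians of 0.55 and 1.52.

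Genes known to respond to glucocorticoids did not move as 1 group. Of 18 tested, 6 fell, 2 rose and 10 were not called with ablation against sham, and their median change was −0.14. Of all genes 12.8% fell and 9.23% rose in this comparison. Fkbp5, a chaperone that glucocorticoids induce and that restrains their receptor, ran from 0.12 over 0.61 to 0.74 in the estradiol arrays, from 0.15 over 0.55 to 0.66 in the ablation arrays and from 1.22 over 1.52 to 1.76 in the sham arrays. All arrays of both ablation groups lay below every sham array, as in 1.4% of probe sets with ablation and 2.15% with estradiol plus ablation. Fkbp5 fell by 1.01 with ablation against sham (SE 0.08, adjusted p = 1.12e-12 by limma), a 2.01-fold lower signal, and differed by 0.05 between estradiol plus ablation and ablation (adjusted p = 0.851 by limma). Androgens are known to induce Fkbp5 as well.

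Angptl4, Glul and Lcn2 also fell with ablation against sham, each with all 11 ablation arrays below every sham array. Angptl4, an inhibitor of lipoprotein lipase, had a change of −1.58, Glul, glutamine synthetase, one of −1.42 and Lcn2, a secreted iron-siderophore binder, one of −1.29 (adjusted p at most 4.42e-12 by limma). Mt2A and Errfi1, named after their values were seen, fell with changes of −0.56 and −0.46. Cdkn1c, an inhibitor of the cell cycle, rose by 0.82 with all 11 ablation arrays above every sham array, as in 0.371% of probe sets, and Nfkbia, also named after its value was seen, rose by 0.41. Without the 13 arrays with Prm1 above the array median, the calls of Errfi1 and Nfkbia were lost (−0.64 and 0.18, adjusted p = 0.140 and 0.510 by limma). The call of Errfi1 was also lost against the sham arrays described as irradiated alone or as control alone (adjusted p = 0.106 and 0.05003 by limma). In contrast, Tsc22d3, Sgk1 and Per1 were not called: their changes were −0.15, 0.18 and 0.42 (adjusted p = 0.207, 0.218 and 0.0732 by limma). Tsc22d3 and Per1 are direct targets of the glucocorticoid receptor, and Sgk1 is induced through both receptors. Sgk1 passed the threshold after quantile normalization (0.22, adjusted p = 0.0109 by limma) and had a change of −0.05 without the 13 arrays with Prm1 above the array median.

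With estradiol plus ablation against ablation, 2 of the 18 rose and 1 fell, with a median change of 0.05, where 0.729% of all genes rose and 2.73% fell. Angptl4 rose by 0.72 (adjusted p = 0.000143 by limma), and all 6 estradiol arrays lay above every ablation array, as in 0.193% of probe sets. Dusp1, a phosphatase that turns off stress kinases, rose by 0.96 (adjusted p = 0.0197), but not past the threshold without estradiol replicate 5 or 6 (adjusted p = 0.0697 and 0.109), nor without the 13 arrays with Prm1 above the array median (adjusted p = 0.182, all by limma). Klf9, a transcription factor, fell by 0.46 (adjusted p = 0.0221 by limma), a call lost without estradiol replicate 1 or 5 (adjusted p = 0.0702 and 0.141 by limma). The call of Klf9 was also lost under 4 of 11 alternatives in processing or arrays (adjusted p up to 0.298 by limma). Per1 had a change of −0.65 (adjusted p = 0.0611 by limma) and passed without ablation replicate 7 or estradiol replicate 3 or 6. Against sham, 3 rose and 6 fell with estradiol plus ablation, with a median change of −0.16, where 5.28% of all genes rose and 11.9% fell.

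Genes that make, carry or clear corticosteroids were mostly not tested. Of 11 listed, 6 had a probe set and 3 were kept, none of them called by limma with ablation against sham or with estradiol plus ablation against ablation (1 at an unadjusted p under 0.05 in each). Akr1c14, a 3-alpha-hydroxysteroid dehydrogenase that reduces steroids, rose by 0.66 with estradiol plus ablation against sham (SE 0.19, adjusted p = 0.0157 by limma), but not past the threshold without estradiol replicate 1 (0.51, adjusted p = 0.0795). The call of Akr1c14 was also lost under 3 of 13 alternatives (adjusted p up to 0.122 by limma). The medians of the 3 genes were 0.05, 0.31 and −0.08 in the 3 comparisons, in the order used above.

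Of 11 other hydroxysteroid dehydrogenases tested, 4 fell and 1 rose with ablation against sham, with a median change of −0.28. Of all genes 12.8% fell and 9.23% rose. Hsd17b3 fell with a change of −1.31, Hsd17b10, a mitochondrial member, with −0.88 and Hsd17b11 with −0.32 (adjusted p = 6.21e-05, 2.05e-08 and 0.00503 by limma). The call of Hsd17b11 was lost without the 13 arrays with Prm1 above the array median (−0.35, adjusted p = 0.185 by limma). Hsd3b7, a bile acid enzyme named after its value was seen, fell with a change of −0.34. Hsd3b1 rose by 0.39 (adjusted p = 0.0364 by limma). The call of Hsd3b1 was lost without any 1 of sham replicates 1, 5 and 13 or ablation replicates 2, 6, 9 and 11 (adjusted p up to 0.0669 by limma), and that of Hsd3b7 in 12 of 25 such cases (adjusted p up to 0.0857 by limma). Of 13 alternatives in processing or arrays, 6 lost the call of Hsd3b1 and 7 that of Hsd3b7 (adjusted p up to 0.411 and 0.164 by limma). The change of −2.00 in Hsd11b1 was larger than those of the 4 that fell, and the change of −0.53 in Hsd11b2 lay between those of Hsd17b10 and Hsd3b7. With estradiol plus ablation against ablation 0 of 11 were called by limma (2 at an unadjusted p under 0.05), with a median change of 0.07. Of all genes 2.73% fell and 0.729% rose there. Hsd17b7 fell by 0.74 with estradiol plus ablation against sham (adjusted p = 0.00761 by limma). Its adjusted p was 0.0896 without the 13 arrays with Prm1 above the array median and 0.0806 with the replicate number as a block (both by limma). Against sham 4 of the 11 fell and 1 rose with estradiol plus ablation, with a median change of −0.22, where 11.9% of all genes fell and 5.28% rose.

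The genes whose pattern over the 31 arrays was most like that of each member were named by Pearson's r, as a description without a test. The 31 arrays share their 3 group levels, so r carries the steps between groups. For Hsd11b1 they were Ctsh, a lysosomal protease (r = 0.976), Adh1c, an alcohol dehydrogenase (0.974), Tspo, a mitochondrial outer membrane protein abundant in steroid-making cells (0.963), Rida (0.958) and Retsat, a retinol saturase (0.958). Their changes with estradiol plus ablation against ablation lay between −0.08 and 0.13, beside 0.09 in Hsd11b1, and those with ablation against sham between −3.05 and −1.22, beside −2.00. For Hsd11b2 they were Insl3 (r = 0.888), Lcat, which esterifies cholesterol (0.888), Cyp17a1 (0.881), Mthfd2 of folate metabolism (0.879) and Ces1d, a carboxylesterase (0.873). With estradiol plus ablation against ablation, 4 of these had changes between −1.88 and −0.69, and Mthfd2 had −0.11. Hsd11b2 ranked 385th of 11386 genes in likeness to Hsd11b1, and Insl3 ranked 33rd.

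Over deviations from the group means, which leave out the steps between groups, other genes came first. For Hsd11b1 these were Pon3 (r = 0.780), Creg1 (0.771), C1s (0.769), Id2 (0.765) and Klc3 (0.751). For Hsd11b2 they were Tmem70 (0.675), Pold4 (0.669), Vit (0.628), Cd3g (0.576) and Fads2 (0.566). None of them stood among the 5 most alike over all arrays, and the likeness to Hsd11b2 was lower than that to Hsd11b1.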

How the data were processed

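The deposited table holds 1 value per probe set and array, made by the authors with MAS5, per the submitters' processing notes, and the deposited values are on a logarithmic scale, read here as log2. The version, base and scaling reference are not given in the sources used here. Values of the 6 newer arrays are rounded to 2 decimals, without control probe sets. Of 31099 probe sets, 57 controls were left out. Symbols came from the platform annotation (20826 probe sets with 1 symbol, 436 with several, 9780 with none), updated through Entrez numbers for 20758. Each gene was taken at its kept probe set of highest mean.

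Groups followed the labels. Differences were tested with limma 3.58.1 in R 4.3.3 (lmFit, eBayes with a trend, 2-sided), adjusted by Benjamini and Hochberg and called at 0.05. The ratio of the pair was tested by permutation over arrays. The members and lists were chosen with earlier results of these data known. The 5 lists hold 62 entries, 52 with a probe set. Named genes were the members, 12 genes fixed by name, up to 4 called genes with the smallest adjusted p per list and comparison, and 5 genes per member by likeness. Replicate numbers were not taken to pair arrays: correlations of deviations between same-numbered arrays ran from −0.086 to 0.047 (ablation and sham), from −0.18 to 0.059 (estradiol and ablation) and from −0.011 to 0.38 (estradiol and sham, 3 of 6 over 0.1). On simulated data with 200 changed probe sets, the procedure called 55.2% of changes of 0.5 (log2) with ablation against sham. It called 22.4% of such changes with estradiol plus ablation against ablation and 34.3% with estradiol plus ablation against sham. For changes of 1 the shares were 89.6%, 86.6% and 88.1% in the same order. Alternatives were filters, scalings, sample choices and leaving out single arrays.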

Additional observations from a re-analysis of the deposited data

Results flagged for a closer look

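Each of 35 measures was examined in the 6 estradiol arrays for 1 array far from the rest, and 3 measures had one. Chance alone gives about 1 in 20. Insl3 stood at −3.82 on estradiol replicate 3, with the nearest array at −2.09. The mean of the 7 Leydig markers, which contains Insl3, stood at −0.12 on the same array, with the nearest at 0.41. Hsd17b7 stood at −1.74 on estradiol replicate 5, with the nearest at −0.94. Neither Hsd11b1 nor Hsd11b2 had such an array among the 6. The ablation and sham arrays were not examined in this way, so ablation replicate 4 in Hsd17b3 (−4.37, nearest array −2.19) was not assessed.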

How the results depend on the processing

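The base of the logarithm, the newer deposit of the estradiol arrays and the number of arrays limit all values. Hsd11b1 kept its direction and its side of the threshold in all 3 comparisons under every alternative run and without any single array (13, 11 and 13 alternatives, 25, 17 and 20 arrays left out), and Hsd11b2 did so in both comparisons against sham. The ratio of the pair did so under the 6, 4 and 6 alternatives run for it and without any single array. The cause of the following changes was not tested. The call of Hsd11b2 between estradiol plus ablation and ablation was lost after quantile normalization (−0.32, adjusted p = 0.0837 by limma), with arrays centred on their median (−0.32, adjusted p = 0.0778), with low values raised to the filter level (−0.36, adjusted p = 0.0505), with only the 2 groups compared (−0.36, adjusted p = 0.0536) and without the 13 arrays with Prm1 above the array median, here called Prm1-positive (−0.36, adjusted p = 0.299). It ran from −0.41 to −0.31 over single arrays left out and was lost in 9 of 17. Hsd11b1 relative to the Leydig mean, ablation against sham, was −0.47 (adjusted p = 0.0615, permutation) against the 4 sham arrays whose description says irradiated and −0.56 (adjusted p = 0.0682) without the Prm1-positive arrays, and estradiol plus ablation against ablation was 0.69 (adjusted p = 0.0682) there.

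Called probe sets numbered 4128 with ablation against sham, 2317 against those 4 sham arrays and 1304 without the Prm1-positive arrays. They numbered 1173 and, without the Prm1-positive arrays, 211 for estradiol plus ablation against ablation, and 3093 and, against those 4 sham arrays, 1693 for estradiol plus ablation against sham. The share of higher calls was 10.7% and, after quantile normalization, 24.0% in estradiol plus ablation against ablation, and 28.5% and 47.2% against sham.

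With the replicate block Hsd11b2 between estradiol plus ablation and ablation was −0.39 (adjusted p = 0.0649 by limma), and the called probe sets were 3185, 878 and 2349 in the 3 comparisons. The replicate numbers are not shown to pair the arrays.

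Only uncalled values changed sign. In the sham arrays r of the pair was 0.17 (quantile) and 0.067 (centred). With ablation against sham Nr3c1 was 0.017 (quantile), 0.023 (sham described as control), 0.057 (no Prm1-positive arrays) and −0.066 to 0.014 over single arrays left out, and Sgk1 was −0.053 without the Prm1-positive arrays. With estradiol plus ablation against ablation and no Prm1-positive arrays, Fkbp5 was −0.091, H6pd 0.13 and Hsd17b3 −0.092. H6pd was also 0.030 (quantile) and 0.035 (centred), Hsd17b3 −0.11 with low values raised, and Nr3c2 −0.018 without the 6 arrays that were extreme on the main axis of variation within groups, a setting added after the data were seen. H6pd ran from −0.059 to 0.042 and Hsd17b3 from −0.13 to 0.23 over single arrays left out. Against sham Nr3c1 in the estradiol arrays was −0.067 against those 4 sham arrays, −0.017 without the 6 arrays and −0.010 to 0.069 over single arrays left out, and Per1 was 0.11 without the 6 arrays and −0.45 to 0.016 over single arrays left out. Other probe sets of the members were not run, as each gene had 1.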
